A study of Sus scrofa with 8 samples.

Results

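The genes described here encode the proteins of the cytosolic ribosome. They were taken as every gene in the count files whose pig symbol is RPL or RPS followed by a number, with at most an A, L or X suffix, together with RPLP0, RPLP1, RPLP2 and RPSA, and without the RPS6K kinases. This gave 48 of the 31907 genes in the files, of which 15029 carried a symbol. Of the 48, 23 belong to the large subunit and 25 to the small subunit. The RefSeq table for Sscrofa11.1 holds 79 symbols of that form, so a ribosomal protein gene without a symbol in the count files was not analysed here.

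The libraries came from Guizhou minipigs aged 8 months, in a study of a bladder built from ileum (a neobladder) whose mucosa is replaced by the animal's own peritoneum. The 4 groups had 2 libraries each: mucosa of the normal bladder (MNB), normal peritoneum (NP), mucosa of the neobladder of the experimental group (MN-Exp) and mucosa of the neobladder of the control group (MN-Ctrl). The labels do not describe the lining of the control neobladder, the time since surgery, or whether the 2 libraries of a group came from separate animals. The p-values below therefore measure only the spread between these libraries, which may be technical.

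A ribosome pairs a small subunit, which reads the messenger RNA, with a large subunit, which joins the amino acids. Their proteins are made in nearly equal numbers in every growing cell, and their messenger RNAs are short, abundant and stable. Most of these messengers begin with a run of pyrimidines (a TOP motif), through which the kinase mTORC1 and the RNA-binding protein LARP1 control how strongly they are translated. In gut and bladder mucosa alike, the demand for ribosomes is known to be highest in dividing and secreting cells. A count of messenger RNA does not measure ribosome number or translation.

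Library totals ran from 7939291 to 11884868 counts. Levels are given as CPM, counts relative to the library's total, after TMM scaling, which sets each library against the others by the bulk of its genes. The TMM factor was 1.09 to 1.24 in the 6 MNB, NP and MN-Exp libraries, 0.839 in MN-Ctrl replicate 1 and 0.45 in MN-Ctrl replicate 2. The tissue labels were checked against marker genes. The 12 urothelial markers summed to 10100 and 11360 CPM in the MNB libraries, 5409 to 9694 CPM in MN-Exp, 560 to 1002 CPM in NP and 374 to 604 CPM in MN-Ctrl. The 12 enterocyte markers summed to 51340 CPM in MN-Ctrl replicate 1 and 171100 CPM in replicate 2, against 490 to 1011 CPM in the other libraries. The 6 mesothelial markers in the files summed to 163 and 176 CPM in the NP libraries, within the 149 to 227 CPM of MNB and MN-Exp, and to 77.4 and 111 CPM in MN-Ctrl, so their sum did not mark out NP. Among them CALB2 had 0 counts in all 4 groups. KRT18 stood at 3.05 and 1.51 CPM in NP against 76.3 to 181 CPM elsewhere, and WT1 at 27.7 and 25.3 CPM in NP against at or near 0 elsewhere. By the test described below, 3 of the 5 tested were called higher in NP than in MNB and 1 lower. Compared with NP, 4 were called lower and 1 higher in MN-Ctrl, and 3 lower and 1 higher in MN-Exp. In these comparisons 21.1%, 42.3% and 24.2% of all tested genes were called in either direction. In bulk tissue, fewer cells of a type and less RNA per cell cannot be told apart.

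Ribosomal protein messengers made up a similar, small share of the counts in 7 of the 8 libraries and a much larger one in MN-Ctrl replicate 2. The 48 genes together took 2.08% and 2.85% of the counts in the MNB libraries, 3.73% and 2.83% in NP, 3.27% and 3.26% in MN-Exp, and 2.23% and 7.97% in MN-Ctrl. The spread between the MN-Ctrl libraries (5.10% ± 4.06, SD, n = 2) was larger than any difference between group means, which were 2.46% ± 0.541 in MNB, 3.28% ± 0.635 in NP and 3.27% ± 0.00258 in MN-Exp. The median gene stood at 299 and 379 CPM in MNB, 481 and 336 in NP, 486 and 459 in MN-Exp, and 443 and 2939 in MN-Ctrl.

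**Figure D1:**
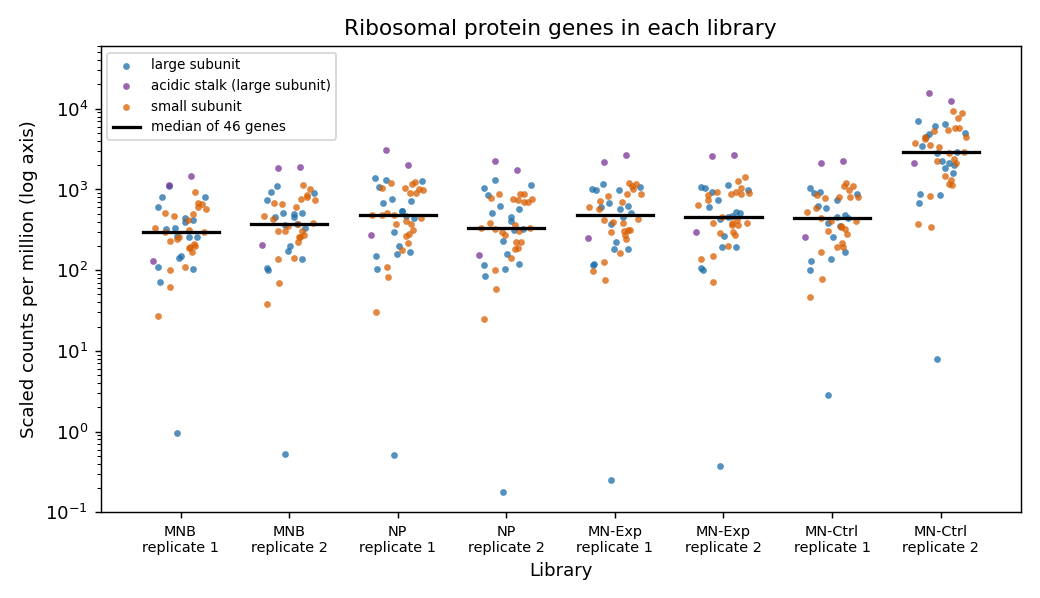
Scaled CPM (log axis) of the 46 ribosomal protein genes that passed the low-count filter, in each of the 8 libraries. Each point is 1 gene, coloured by its place in the ribosome, and the bar is the median of the 46 genes. The medians of 7 libraries lie between 299 and 486 CPM, and that of MN-Ctrl replicate 2 is 2939 CPM.

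Of the 48 genes, 46 passed the filter on low counts. RPL10L, a copy of RPL10 known from testis, had 0 to 4 counts in every library. RPL29, a protein of the large subunit, also had 0 to 4 counts in every library under the Ensembl identifier ENSSSCG00000027573 (chromosome 13, 34119541 to 34121842, Sscrofa11.1). Ribosomal protein genes have many processed copies elsewhere in mammalian genomes. How reads that fit several copies were counted is not given in the sources used here, so the level of any 1 gene, and RPL29 above all, is uncertain.

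The stalk proteins of the large subunit call translation factors to the ribosome. Of these, RPLP0 and RPLP1 were among the most heavily counted members, while RPLP2 lay below the members' median in every library. RPLP0 (ENSSSCG00000036014, chromosome 14, 40219196 to 40223943) stood at 1462 and 1914 CPM in MNB, 2019 and 1723 in NP, 2636 and 2639 in MN-Exp, and 2236 and 12640 in MN-Ctrl. RPLP1 (ENSSSCG00000004970, chromosome 1, 167296084 to 167298264) stood at 1147 and 1832 CPM in MNB, 3077 and 2272 in NP, 2214 and 2602 in MN-Exp, and 2132 and 15770 in MN-Ctrl. RPLP2, the partner of RPLP1 in the stalk, stood at 131 and 205 CPM in MNB, 272 and 155 in NP, 251 and 297 in MN-Exp, and 255 and 2135 in MN-Ctrl. For all 3 genes, MN-Ctrl replicate 1 fell inside the range of the MNB, NP and MN-Exp libraries and replicate 2 lay far above it.

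Other large-subunit proteins were also highest in MN-Ctrl replicate 2. RPL37 (ENSSSCG00000033326, chromosome 16, 25800883 to 25803526), a small zinc-binding protein, stood at 330 and 518 CPM in MNB, 769 and 621 in NP, 680 and 740 in MN-Exp, and 591 and 6039 in MN-Ctrl. RPL3, which lies near the site of peptide bond formation, stood at 817 and 931 CPM in MNB, 1076 and 864 in NP, 982 and 1031 in MN-Exp, and 913 and 3447 in MN-Ctrl. RPL23, which lies at the face between the subunits, stood at 449 and 497 CPM in MNB, 543 and 402 in NP, 980 and 1137 in MN-Exp, and 741 and 6475 in MN-Ctrl. RPL23 was higher in both MN-Exp libraries than in any MNB or NP library.

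So were the small-subunit proteins. RPS29 (ENSSSCG00000038507, chromosome 1, 179454923 to 179456847), a zinc-binding protein of the subunit head, stood at 499.6 and 761 CPM in MNB, 907 and 744 in NP, 873 and 942 in MN-Exp, and 1091 and 9377 in MN-Ctrl. RPSA, also known as a laminin receptor, stood at 921 and 1141 CPM in MNB, 1155 and 879 in NP, 1208 and 1278 in MN-Exp, and 1195 and 5760 in MN-Ctrl. RPS4X, the X-linked form of RPS4, stood at 314 and 369 CPM in MNB, 404 and 364 in NP, 387 and 382 in MN-Exp, and 356 and 1184 in MN-Ctrl. Outside MN-Ctrl replicate 2, RPS4X thus lay between 314 and 404 CPM.

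Further members of both subunits were likewise highest in MN-Ctrl replicate 2, while the order of the other libraries varied. RPL10, which helps to shape the site of peptide bond formation, stood at 606 and 750 CPM in MNB, 1404 and 1046 in NP, 1009 and 1078 in MN-Exp, and 1033 and 7136 in MN-Ctrl. RPS15, which reaches the decoding site, stood at 654 and 1024 CPM in MNB, 1013 and 695 in NP, 1179 and 1446 in MN-Exp, and 1106 and 8942 in MN-Ctrl. RPS7 stood at 609 and 797 CPM in MNB, 1231 and 874 in NP, 1106 and 1040 in MN-Exp, and 972 and 7678 in MN-Ctrl. For these 3 genes MNB replicate 1 was the lowest library. RPS27L, a copy of RPS27 known as a p53 target, stood at 101 and 137 CPM in MNB, 109 and 99.4 in NP, 126 and 150 in MN-Exp, and 170 and 830 in MN-Ctrl, so that both MN-Ctrl libraries were above the other 6.

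Over all 46 tested members, MN-Ctrl replicate 2 was the highest library for 46 and MNB replicate 1 the lowest for 35. NP replicate 2 was lowest for 9, and MN-Exp replicate 2 and MN-Ctrl replicate 1 for 1 each. MN-Ctrl replicate 1 lay within the range of the 6 MNB, NP and MN-Exp libraries for 41 members, above it for 4 and below it for 1. MN-Ctrl replicate 2 exceeded the highest of those 6 libraries by 2.68-fold for RPS21, the smallest ratio, by 5.59-fold for the median member and by 9.95-fold for RPS29, the largest.

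The next question was how far the MN-Ctrl libraries differed gene by gene. The log2 ratio of replicate 2 to replicate 1 had a median of 2.80 over the 46 members, a 6.98-fold difference, against -0.06 over all 16549 tested genes. Every one of the 46 members was over 2-fold higher in replicate 2, where 19% of all tested genes were over 2-fold higher and 22.9% over 2-fold lower. Among the 16503 other tested genes, 162 (0.982%) had a ratio at or above the members' median and 2051 (12.4%) one at or above that of the lowest member. With 1 library on each side the ratio carries no test.

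Both subunits shared the shift, with a median log2 ratio of 2.74 over 21 large-subunit genes and 2.87 over 25 small-subunit genes. The highest ratios were those of RPL37 (3.35), RPL35 (3.25), RPL38 (3.13), RPL23 (3.13), RPS29 (3.10) and RPLP2 (3.06). The lowest were those of RPL3L (1.42), RPS4X (1.73), RPL3 (1.92), RPL4 (2.04), RPL5 (2.07) and RPS13 (2.15). RPL3L, a paralog of RPL3 known from striated muscle, rests on 26 and 42 counts in the MN-Ctrl libraries. RPL5 joins the 5S ribosomal RNA and is known as a binder of MDM2.

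The other replicate pairs gave no such ratio. The members' median log2 ratio of replicate 2 to replicate 1 was 0.40 in MNB, -0.39 in NP and 0.09 in MN-Exp, and 0 of 46 members passed 2-fold in either direction in any of these pairs. In the same pairs, 6.22%, 10.2% and 4.66% of all tested genes were over 2-fold higher and 4.97%, 8.7% and 9.58% over 2-fold lower.

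**Figure D2:**
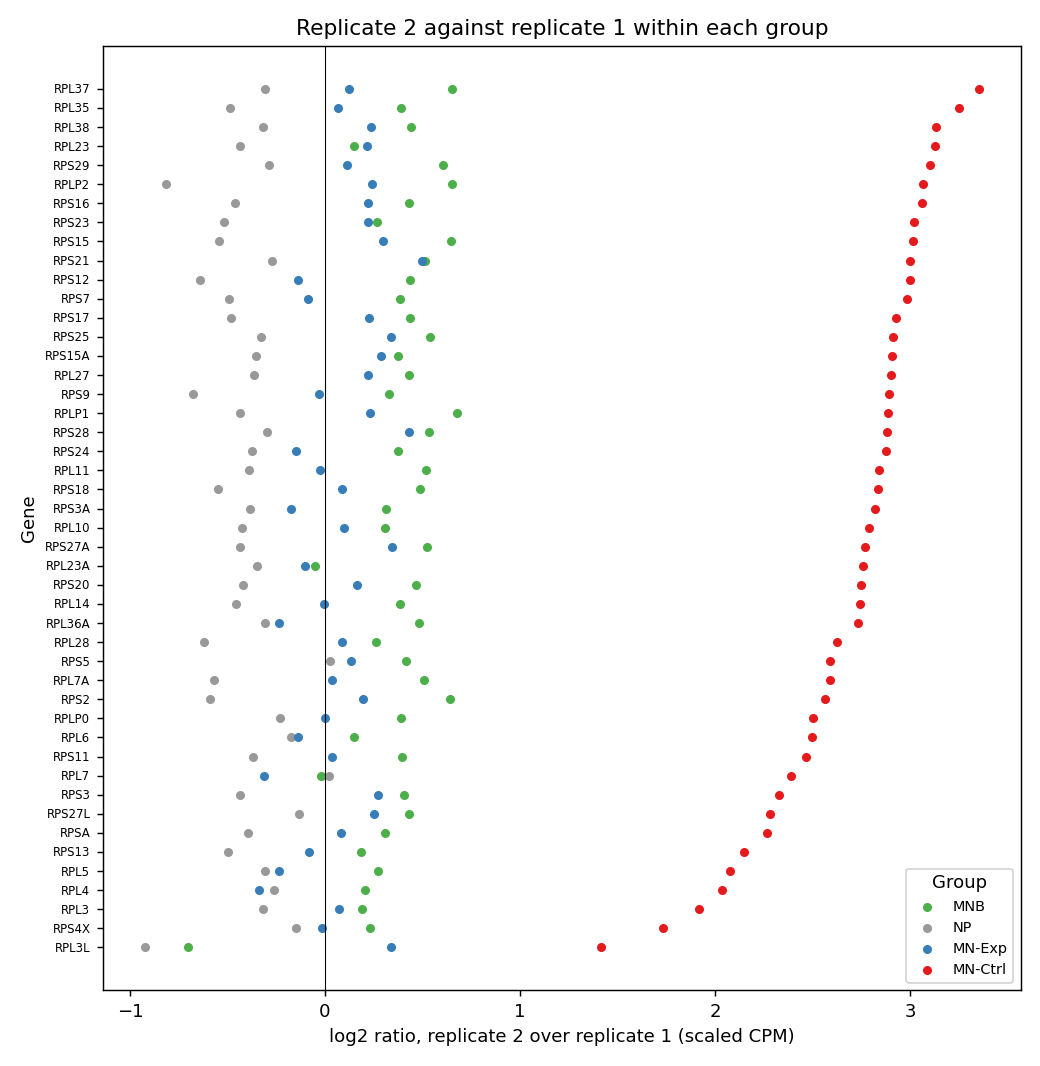
The log2 ratio of replicate 2 to replicate 1 (scaled CPM) within each group, for each of the 46 tested ribosomal protein genes, 1 gene to a line, ordered by the MN-Ctrl ratio. The MN-Ctrl points run from 1.42 for RPL3L to 3.35 for RPL37, and in the other 3 groups no point passes 2-fold.

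Scaling sets part of the size of this ratio. On library totals alone, with no TMM factors, the members' median log2 ratio between the MN-Ctrl libraries was 1.90, while the median of all tested genes moved to -0.85. Relative to the median of all genes, the members' ratio was 2.87 with TMM factors, 2.75 on library totals and 2.91 with DESeq2 size factors.

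Ribosomal protein genes are short, and the ratio was therefore set against gene length. Length here is the gene's span in the genome, introns included, since no messenger or protein lengths were used. A span was found for 46 of 46 tested members and for 11643 (70.4%) of all tested genes. The shortest tested member was RPS28, at 1157 bp, and the longest was RPS3, at 17466 bp.

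Short genes in general stood higher in MN-Ctrl replicate 2. When the genes with a span were divided into 10 bins of equal number, the median log2 ratio of the genes that are not ribosomal proteins was 0.72 in the shortest bin (297 to 5531 bp) and 0.35 in the next (5535 to 9969 bp). It was 0.15 in the bin after that, -0.01 in the fourth, and -0.52 in the longest. Across the 11643 genes, the ratio and log2 span had a Spearman correlation of -0.318 and a Pearson correlation of -0.31, and leaving out the members changed these to -0.311 and -0.30. These correlations describe genes that share the same pair of libraries, and genes are not independent replicates. In the replicate pairs of MNB, NP and MN-Exp the Spearman correlations over the same genes were -0.082, 0.01 and -0.118.

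The members stood well above other genes of similar span. Whether they also stood above genes of the same messenger length was not tested. In the shortest bin, 32 members had a median log2 ratio of 2.86 against 0.72 for the other genes, and in the next bin 12 members had 2.58 against 0.35. RPL3L, alone in its bin, stood at 1.42 against 0.15, and RPS3, which binds messenger RNA at the entry of its channel, stood at 2.33 against -0.01. The ratio of a member minus the median of the other genes in its bin had a median of 2.16 and ran from 1.27 to 2.78, above 0 for 46 of 46. The same quantity had a median of 0.30 in MNB, -0.38 in NP and 0.02 in MN-Exp. Among the other genes of the shortest bin, 40.3% were over 2-fold higher in MN-Ctrl replicate 2, and 29.4% were in the next bin.

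**Figure D3:**
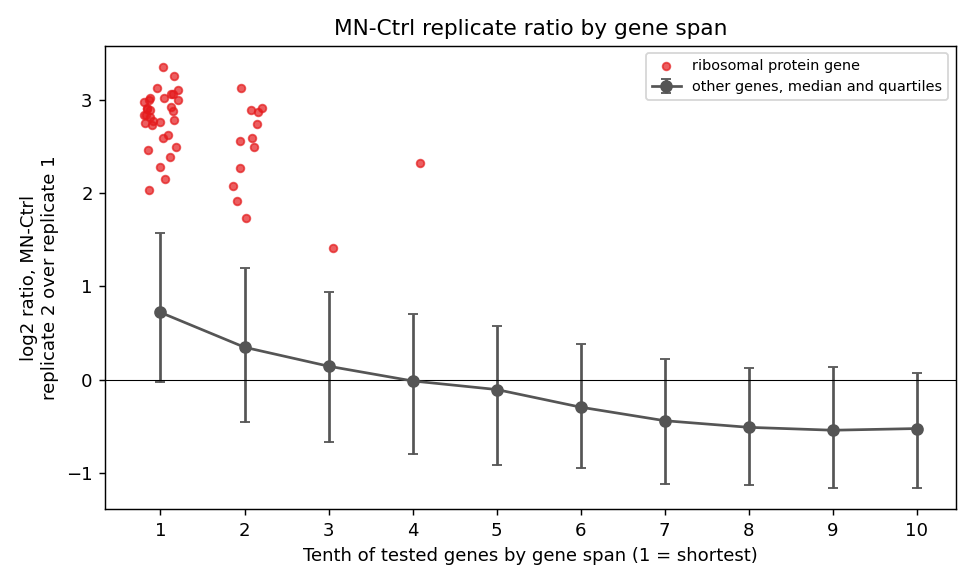
The MN-Ctrl log2 ratio of replicate 2 to replicate 1 by gene span, in 10 bins of equal gene number from shortest to longest. Grey points and bars are the median and quartiles of the other genes, whose median falls from 0.72 in the shortest bin to -0.52 in the longest. Red points are single members, which lie above the median of their bin by 1.27 to 2.78.

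Within the family the ratio also fell with span. Across the 46 members the Spearman correlation of ratio and log2 span was -0.494 and the Pearson correlation -0.514. Without the 2 longest members, RPS3 and RPL3L, they were -0.433 and -0.428 over 44 genes. The 23 members with the shorter span (1157 to 4057 bp) had a median log2 ratio of 2.88 and the 23 with the longer span (4125 to 17466 bp) one of 2.59. Between the MNB libraries the members gave a Spearman correlation of -0.49, between the NP libraries 0.082 and between the MN-Exp libraries -0.277. A correlation of that size with span thus also stood in a pair whose members differed by less than 2-fold.

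Span did not order the members exactly. RPS29 and RPLP2, with spans of 1925 and 1928 bp, had ratios of 3.10 and 3.06, but RPL35 and RPL38, with 5013 and 5068 bp, had 3.25 and 3.13, and RPS13, with 2798 bp, had 2.15. RPS27L spans 5005 bp, close to RPL35, and had a ratio of 2.28. The longest members, RPS3, RPL3L, RPSA, RPL5 and RPL3, had ratios of 2.33, 1.42, 2.27, 2.07 and 1.92, all below the members' median.

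The members are also heavily counted genes, so the comparison was repeated within the top 1 of 10 bins of equal number by mean level. There the 43 members present had a median log2 ratio of 2.82 and the other genes 0.20. Genes that were both in this bin and in the shortest span bin numbered 231 besides the members. Their median log2 ratio was 1.04, and 118 of them (51.1%) were over 2-fold higher in MN-Ctrl replicate 2, where 30 of 30 members were, with a median of 2.86. In the second span bin, 160 such genes had a median of 0.68, 62 of them (38.8%) were over 2-fold higher, and 12 members had 2.58. Removing a smooth trend of level on span from every library left a median log2 ratio of 1.96 for the members. By these measures the members' ratio was larger than that of other genes of the same span, the same level, or both.

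Other lists of nuclear genes showed a median ratio in the same direction. Their median spans were 6692 bp (oxidative phosphorylation), 10183 bp (Sm and LSm proteins), 7838 bp (mitochondrial ribosome) and 13411 bp (proteasome), against 4091 bp for the members. The nuclear subunits of oxidative phosphorylation had a median log2 ratio of 2.14, with 43 of 54 over 2-fold higher, and among them COX5B, a subunit of cytochrome c oxidase, went from 1168 CPM in replicate 1 to 7511 CPM in replicate 2. The Sm and LSm proteins of the spliceosome had a median of 1.89 (15 of 18 over 2-fold higher), the proteins of the mitochondrial ribosome 1.52 (42 of 62) and proteasome subunits 1.09 (18 of 34). The 12 tested genes encoded in the mitochondrial genome had a median of -1.65, and 9 of them were over 2-fold lower.

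Lists of genes that work beside the ribosomal proteins had smaller median ratios but also longer spans. Their median span was 10147 bp for other TOP messengers, 20635 bp for translation factors and 13958.5 bp for ribosome biogenesis. It was 39528.5 bp for the mTORC1 and LARP1 list and 42168.5 bp for chaperones and sensors, against 4091 bp for the members. The part of span in these smaller ratios was not tested. Other messengers with a TOP motif had a median log2 ratio of 0.99, with 7 of 15 over 2-fold higher. Among them TPT1 went from 537 to 2668 CPM, EEF1B2, an exchange factor of translation elongation, from 189 to 918 CPM, EEF2, the translocation factor, from 1039 to 1129 CPM, and PABPC1, the poly(A)-binding protein, from 171 to 228 CPM. RACK1, a scaffold on the small subunit, went from 502 to 1747 CPM, and FAU, which encodes a small-subunit protein as a ubiquitin-like fusion, from 13.2 to 17.0 CPM. Translation factors had a median of 0.60 (7 of 27 over 2-fold higher) and ribosome biogenesis genes 0.39 (12 of 46 higher and 3 lower). The genes of the mTORC1 and LARP1 control of ribosomal messengers had a median of -0.53 (2 of 16 higher and 4 lower), and the chaperones and sensors of ribosomal proteins one of -0.35 (2 of 16 higher and 3 lower). RPS27A, which encodes a small-subunit protein fused to ubiquitin, is itself a member and had a ratio of 2.77.

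**Figure D4:**
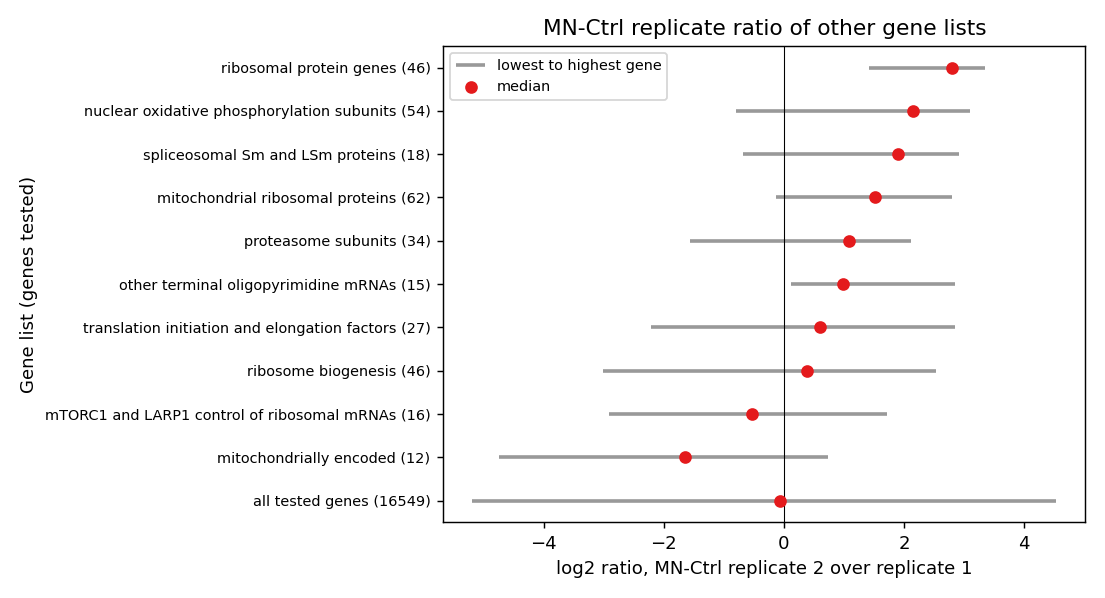
The MN-Ctrl log2 ratio of replicate 2 to replicate 1 for the ribosomal protein genes, for 9 other gene lists and for all tested genes. Points are medians and lines run from the lowest to the highest gene, with the number of tested genes in brackets. The ribosomal protein genes have the highest median among the lists drawn (2.80) and a lowest gene (1.42) above 0. The list of 3 red blood cell markers, not drawn, has a higher median (3.40).

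Markers of cell types also moved between the MN-Ctrl libraries. FABP6, the ileal bile acid-binding protein, went from 31310 to 157300 CPM, while other enterocyte markers such as ANPEP (5541 to 1028 CPM) and VIL1 (2428 to 829 CPM) went the other way. In all, 2 of the 12 enterocyte markers were over 2-fold higher in replicate 2 and 4 over 2-fold lower, and none was at 0 counts in either library. Of the plasma and B cell markers 5 of 10 were over 2-fold higher and 0 lower, of the macrophage markers 5 of 10 higher and 1 lower, of the fibroblast markers 0 of 7 higher and 4 lower, and of the red blood cell markers 3 of 3 higher. The summed markers of plasma and B cells went from 3788 to 10360 CPM, those of macrophages from 4410 to 9919 CPM and those of fibroblasts from 2633 to 1167 CPM, while those of dividing cells stood at 692 and 592 CPM. The summed red blood cell markers stood at 11.1 and 114 CPM, against 18.4 to 36.9 CPM in the other 3 groups. The part of these cell types, and of RNA quality, in the members' ratio was not tested.

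The comparisons between groups were made with edgeR's quasi-likelihood test over all 8 libraries, with Benjamini-Hochberg adjustment over the 16549 tested genes, and a gene was called at an adjusted p under 0.05. Log2 fold changes are given with approximate standard errors. The 3 comparisons with MN-Ctrl share its libraries and are given side by side, not as support for each other.

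Against the normal bladder, the mean level of ribosomal protein messengers was higher in the control neobladder, mostly through MN-Ctrl replicate 2. The members' median log2 fold change was 2.41, where the median of all tested genes was -0.11. Of the 46 members, 22 rose and 0 fell, where 11.2% of all tested genes rose and 11.1% fell. Those with the largest changes among the called were RPS29 (3.05 ± 0.861, adjusted p = 0.0297 by edgeR's quasi-likelihood test), RPL37, RPS23, RPL23 and RPS12, and the smallest change among them was 2.07, of RPS27L. In 33 members both MN-Ctrl libraries were above both MNB libraries, against 27.5% of all tested genes, and in 13 the groups overlapped. Without MN-Ctrl replicate 2 the median was 0.48, and without MN-Ctrl replicate 1 it was 3.22. The calls by edgeR also did not hold without MNB replicate 1 or without MNB replicate 2. DESeq2 on all 8 libraries fitted all 48 members, gave no adjusted p to RPL10L and RPL29 and called 46 of the other 46, when it called 25.6% of all genes with an adjusted p. EdgeR on library totals alone called 0, with 15 at an unadjusted p under 0.05. The shares of all tested genes called on library totals and without an MNB library are not given here.

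Against normal peritoneum, the mean level of ribosomal protein messengers was also higher in the control neobladder, mostly through the same library, MN-Ctrl replicate 2. The members' median log2 fold change in MN-Ctrl was 2.03 against -0.06 over all tested genes, and 22 of 46 rose and 0 fell, where 21.6% of all tested genes rose. RPS21, a small-subunit protein, rose by 2.91 ± 0.765 (adjusted p = 0.0123 by edgeR's quasi-likelihood test). The 22 include RPL3L, at a log2 fold change of 3.92, which passed the low-count filter through MN-Ctrl and so had to be higher there. The MN-Ctrl libraries lay above both NP libraries in 16 members, where 32.2% of all tested genes did so, and in 30 the groups overlapped. Without MN-Ctrl replicate 2 the median was 0.14, and without MN-Ctrl replicate 1 it was 2.85. Most calls by edgeR were also lost without NP replicate 1 or without NP replicate 2. DESeq2 called 42 of the 46 members with an adjusted p, when 41.4% of all such genes were, and edgeR on library totals alone called 1. The shares of all tested genes called on library totals and without an NP library are not given here.

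Between the neobladders, which is the study's own contrast, the members had a median log2 fold change of -1.85 in MN-Exp against MN-Ctrl, where the median of all tested genes was 0.11. By edgeR's quasi-likelihood test 2 of 46 members were called lower, where 11.3% of all tested genes fell and 10.4% rose. These were RPL36A (-2.19 ± 0.705, adjusted p = 0.0494 by edgeR) and RPL3L, at a log2 fold change of -4.04, which had passed the low-count filter through MN-Ctrl and so had to be lower in MN-Exp. A further 29 members had an unadjusted p under 0.05 without being called. In 8 members both MN-Exp libraries were below both MN-Ctrl libraries, against 26.2% of all tested genes, and in 38 the groups overlapped. MN-Ctrl replicate 1 alone gave a median of 0.07, on the other side of 0, and RPS21 was then higher in MN-Exp, at 1.28. With MN-Ctrl replicate 2 alone the median was -2.64. The 2 calls by edgeR also did not hold without MN-Exp replicate 1 or without MN-Exp replicate 2. DESeq2 called 39 of the 46 members with an adjusted p, when 27.3% of all such genes were. EdgeR on library totals alone called 0, with 1 at an unadjusted p under 0.05. The shares of all tested genes called on library totals and without an MN-Exp library are not given here.

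**Figure D5:**
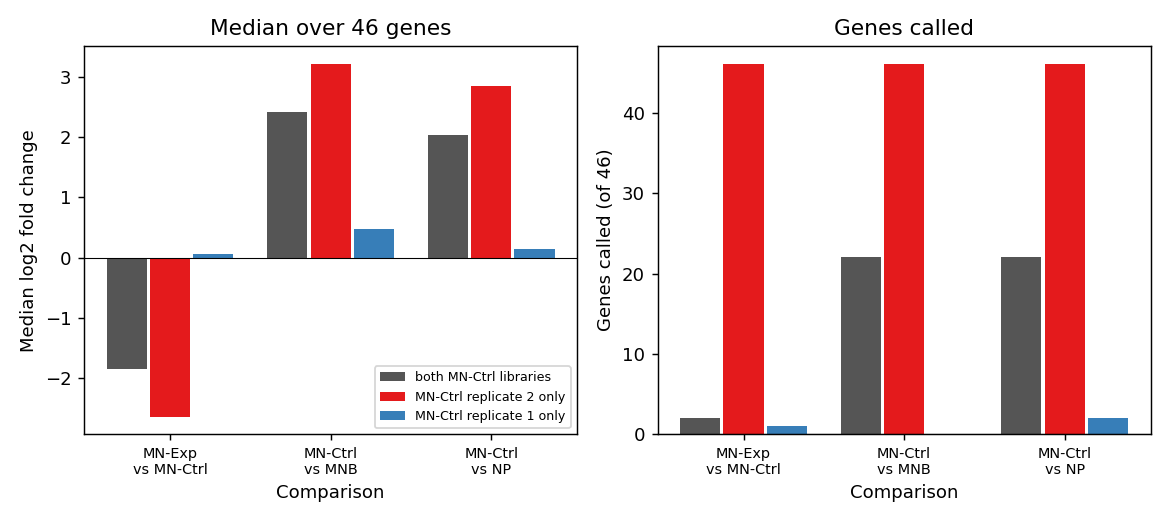
Bars give the members' median log2 fold change (left) and the number of members called of 46 (right) in the 3 comparisons with MN-Ctrl, with both MN-Ctrl libraries or with 1 of them. The share of all tested genes called is not drawn, and bars with 1 MN-Ctrl library rest on that library alone. With replicate 1 alone, the call in MN-Exp against MN-Ctrl is RPS21, which is higher in MN-Exp (1.275).

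The calls of RPL3L rest on few counts, and it was the 1 tested member that reached the filter's minimum (0.954 CPM) in both libraries of 1 group only, MN-Ctrl. The gene (ENSSSCG00000032657, chromosome 3, 40004907 to 40016702) had 12 and 7 counts in MNB, 5 and 2 in NP, 3 and 4 in MN-Exp, and 26 and 42 in MN-Ctrl. As scaled levels these were 0.968 and 0.522 CPM in MNB, 0.509 and 0.178 in NP, 0.254 and 0.370 in MN-Exp, and 2.83 and 7.86 in MN-Ctrl. Both MN-Ctrl libraries were above every other library. RPL36A (ENSSSCG00000039046, chromosome X, 83018305 to 83022285) stood at 71.7 and 100.2 CPM in MNB, 104 and 84.0 in NP, 119 and 101 in MN-Exp, and 131 and 871 in MN-Ctrl.

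Outside MN-Ctrl, no member was called in any comparison by the edgeR fit described above, though some other settings gave calls. In MN-Exp against MNB the median log2 fold change was 0.50 against 0.02 over all tested genes, with 44 of 46 positive. The count was 0 of 46 (1 at an unadjusted p under 0.05, 0 by DESeq2), where 0.0967% of all tested genes were called. Even so, both MN-Exp libraries were above both MNB libraries in 38 members, against 24.8% of all tested genes, and below them in 1, RPL3L, against 23.7%. Without MNB replicate 1, the lowest library for 35 members, the median was 0.27, and without MNB replicate 2 it was 0.73.

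In MN-Exp against NP the median was 0.14 against -0.01 over all tested genes, with 34 of 46 positive. Without NP replicate 2 the median was -0.004 with 23 positive, and without NP replicate 1 it was 0.35 with 39 positive. In this comparison 0 members were called by edgeR, 1 at an unadjusted p under 0.05 and 1 by DESeq2, where 24.2% of all tested genes were called. The MN-Exp libraries were above both NP libraries in 16 members, against 35.4% of all tested genes, and below in 4, against 35.9%. In NP against MNB the median was 0.23 against 0.02 over all tested genes, with 38 of 46 positive. The median was 0.06 without MNB replicate 1, 0.41 without MNB replicate 2, 0.01 without NP replicate 1 and 0.38 without NP replicate 2. There 0 members were called by edgeR, 0 had an unadjusted p under 0.05 and 0 were called by DESeq2, where 21.1% of all tested genes were called. NP was above MNB in both libraries for 15 members, against 34.7%, and below for 1, against 35.3%.

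Among the members, RPS21 had the largest fold change in the experimental neobladder against both normal tissues. The gene (ENSSSCG00000021825, chromosome 17, 61763606 to 61764823) stood at 26.9 and 38.4 CPM in MNB, 30.1 and 24.9 in NP, 97.4 and 138 in MN-Exp, and 46.00 and 369 in MN-Ctrl. Both MN-Exp libraries were above every MNB and NP library and above MN-Ctrl replicate 1. Its log2 fold change in MN-Exp was 1.85 ± 0.735 against MNB (adjusted p = 0.535 by edgeR) and 2.10 ± 0.742 against NP (adjusted p = 0.0641 by edgeR), so neither was called. Against NP it was called by DESeq2 (2.07, adjusted p = 0.0151) and by edgeR with no low-count filter (2.14, adjusted p = 0.000121). It was also called by edgeR with the length trend removed, on genes with a span only (1.77, adjusted p = 0.0222). Against MNB it was called by edgeR with no low-count filter (1.83, adjusted p = 0.0127). RPL23 was next, at 1.16 ± 0.795 against MNB (adjusted p = 0.838 by edgeR) and 1.16 ± 0.795 against NP (adjusted p = 0.315 by edgeR).

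Of 46 tested biogenesis genes, 3 rose in MN-Exp against MN-Ctrl (TSR1 and UTP4, which build the small subunit, and NOP2, a ribosomal RNA methyltransferase), where 10.4% of all tested genes rose, and 0 fell. Without MN-Ctrl replicate 1 the counts were 11 higher and 7 lower, and without replicate 2, 6 and 0. In MN-Ctrl against MNB 1 rose, NOP10 of the box H/ACA particles that modify ribosomal RNA, and 4 fell, where 11.2% and 11.1% of all tested genes did. Without MN-Ctrl replicate 1 these counts were 8 and 10, and without replicate 2, 0 and 2. Against NP, 9 rose in MN-Ctrl, where 21.6% of all tested genes rose, and 0 fell, with 19 and 5 without MN-Ctrl replicate 1 and 3 and 0 without replicate 2. In MN-Exp against NP 8 rose and 0 fell, where 24.2% of all tested genes were called in either direction, and in NP against MNB 7 fell and 0 rose, where 21.1% were. None was called in MN-Exp against MNB by edgeR (0 of 46, with 0 at an unadjusted p under 0.05). The median log2 fold changes of the list in the comparisons of MN-Ctrl with MNB and NP were -0.38 and 0.61, where those of the ribosomal protein genes were 2.41 and 2.03.

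The nuclear oxidative phosphorylation subunits were counted with and without replicate 2. With both MN-Ctrl libraries, 11.3% of all tested genes fell in MN-Exp against MN-Ctrl, and 11.2% and 21.6% rose in MN-Ctrl against MNB and NP. Of the 54 subunits, 37 fell in the first comparison, 48 rose in the second and 52 in the third. With replicate 1 alone, 31, 39 and 51 of them were called in the same directions, where the ribosomal protein genes gave 0, 0 and 2 calls in those directions and 20.6%, 19.9% and 40.3% of all tested genes were called. For the mitochondrial ribosome, 7, 15 and 43 of 62 genes were called with both libraries, the first near the share of all tested genes. Its median log2 fold changes were -0.967, 1.175 and 1.669 with both libraries and -0.161, 0.338 and 0.742 with replicate 1 alone.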

How the data were processed

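Messenger RNA of 8 libraries (2 in each of 4 groups) was sequenced. The authors deposited raw counts per gene. Per the labels' protocols, RNA was made into cDNA with Smart-seq2, given an Illumina TruSeq preparation and sequenced on an Illumina HiSeq instrument. Per the submitters' processing notes, Trim Galore, HISAT2 and HTSeq 0.11.1 were used with Sscrofa11.1. Smart-seq2 primes on poly(A) and amplifies cDNA, so a count is of amplified fragments, and the counts carry no correction for length.

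Symbols and spans came from the reference tables by Ensembl identifier and unique symbol. Counts were fitted with edgeR 4.0.16 in R 4.3.3 (TMM, filterByExpr, robust quasi-likelihood, 1 mean per group, 4 residual degrees of freedom). Calls used Benjamini-Hochberg adjusted p under 0.05. Standard errors are the log2 fold change divided by the root of F. Log2 ratios between libraries used a prior count of 2. The script was tested on simulated data. DESeq2 1.42.0 was an alternative. Each library was also left out in turn, when the lone library of its group is assumed to vary like the other groups. Genes named were those at the extremes of level, ratio, span or p, the stalk genes, RPSA and the restricted paralogs. The members and lists were chosen with earlier results of these data known.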

Additional observations from a re-analysis of the deposited data

How the results depend on the processing

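Leaving out 1 library at a time, the number of members called by edgeR went from 0 to 46 in MN-Exp against MN-Ctrl, in MN-Ctrl against MNB and in MN-Ctrl against NP. The medians went from -2.64 to 0.065, from 0.482 to 3.218 and from 0.143 to 2.848, and in MN-Exp against MNB from 0.273 to 0.729. In these 3 comparisons in the same order, where edgeR on all libraries called 2, 22 and 22, DESeq2 called 39, 46 and 42, library totals alone 0, 0 and 1, no low-count filter (48 members tested) 41, 43 and 40, a fit of the 2 groups alone 1, 1 and 2, and removal of the length trend 1, 20 and 11. The fit with the length trend removed held only the 11643 tested genes with a span, so its adjustment also differs. A test against a 1.5-fold change called 1, 11 and 16. The fit with a replicate block called 1, 12 and 9. Apart from DESeq2, these counts stand without the share of all tested genes called. Their changes between settings therefore cannot be read as particular to the members. Deviations of same-numbered libraries from their group means correlated at -0.08 to 0.091, so the numbers were not taken to pair the libraries. The cause of these shifts was not tested. In MN-Exp against MNB, 1 member was called with no filter and 2 by the 2 groups alone, and in MN-Exp against NP 1 by DESeq2, 1 with no filter, 1 with the length trend removed and 3 by the 2 groups alone, where the main count was 0. The gene was RPS21 in each of these settings, with RPL23 added by the 2 groups alone in both comparisons and RPL27 against NP. In NP against MNB the 2 groups alone called 4, RPLP1, RPS27A, RPL10 and RPS20. With the length trend removed the median in MN-Exp against NP was -0.139. The MN-Ctrl log2 ratio was 1.904 on library totals, 1.96 with the length trend removed, and 0.13 for MN-Ctrl replicate 1 against the 6 other libraries. RPS21 in MN-Exp against MN-Ctrl changed sign, to 1.275 without MN-Ctrl replicate 2, against -1.651 without replicate 1. Of the log2 fold changes of 10 named genes in the comparisons with MN-Ctrl, 72 values under the alternatives lost the call and 45 gained one. A length by protein or exon was not run. Depth limits RPL3L, at 42 counts or fewer in every library, and RPL10L and RPL29, at 4 or fewer.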
